A study of Mus musculus with 24 samples.

Results

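Transforming growth factor beta (TGF-beta) signalling was followed through 7 genes of the 13803 measured: the 3 ligand genes Tgfb1, Tgfb2 and Tgfb3, the 3 receptor genes Tgfbr1, Tgfbr2 and Tgfbr3, and Tgfbi, which encodes a secreted matrix protein named for its induction by TGF-beta. They were chosen by name, with earlier results of these data known, and all 7 were in the table. RNA was sequenced from stromal cells sorted out of embryonic mouse kidneys that carry FoxD1Cre-eGFP, a Cre and reporter driven by the stromal gene Foxd1. The labels give 8 groups of 3 libraries: β-catSD (beta-catenin deficient, C57BL/6 background) at E12.5 (E for embryonic day), wild-type (WT) C57BL/6 at E12.5, β-catSD at E13.5, WT C57BL/6 at E13.5, β-catSO (beta-catenin stabilised, CD1 background) at E12.5, WT CD1 at E12.5, β-catSO at E13.5 and WT CD1 at E13.5. The series record names FoxD1Cre-eGFP for WT kidneys as well as for both mutants, and no source used here names the beta-catenin alleles. Strain and genotype line go together, so that a difference between the lines and one between the strains cannot be told apart. The record speaks of 3 kidneys for each genotype without tying them to libraries, and nothing in it says that the libraries of a group came from separate animals or litters. Each p below therefore measures the spread between libraries.

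TGF-beta ligands are secreted in a latent complex, are released by integrins and proteases, and bind the kinase receptor encoded by Tgfbr2, which recruits and phosphorylates the one encoded by Tgfbr1. The activated receptor phosphorylates Smad2 and Smad3, which enter the nucleus with Smad4 and switch on matrix, contractile and feedback genes. Tgfbr3 encodes betaglycan, a co-receptor without kinase activity that presents ligand, TGF-beta 2 above all. In the embryonic kidney, the Foxd1-expressing stroma gives rise to interstitial fibroblasts, pericytes, mesangial cells and vascular smooth muscle.

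Beta-catenin acts on transcription through TCF and LEF factors, so the promoters of the members were searched on both strands for 4 spellings of their core motif, namely ATCAAAG, then also AACAAAG, besides these TACAAAG, and lastly TTCAAAG. RefSeq promoter windows (GRCm38.p6, from 250 bases before to 50 bases after a start) were found for 5 of the 7 genes, as 6 windows of 300 bases, of which Tgfbr1 had 2. No window was given for Tgfb3 or Tgfbr3. One copy was found in the Tgfb2 window, at base -67, and one in the first Tgfbr1 window, at base -30, while the other 4 windows held none. Of all 32851 promoter windows of that length, 16.9% held a copy, so a match is common, and it is a description of letters and not of binding. The bases of both windows upstream of the gene's start in GENCODE M21 are printed, with the motif in capitals, beside those of Tgfbi (no copy), of which there are 187 because the GENCODE start of Tgfbi lies upstream of the RefSeq start. They are shown because these 3 genes differed between the β-catSO and β-catSD effects described later. The sequences run 5′ to 3′ on the strand of the gene, at chr1:186705990-186706239 (minus strand) for Tgfb2, chr4:47352972-47353221 (plus strand) for Tgfbr1 and chr13:56609336-56609522 (plus strand) for Tgfbi.
Tgfb2: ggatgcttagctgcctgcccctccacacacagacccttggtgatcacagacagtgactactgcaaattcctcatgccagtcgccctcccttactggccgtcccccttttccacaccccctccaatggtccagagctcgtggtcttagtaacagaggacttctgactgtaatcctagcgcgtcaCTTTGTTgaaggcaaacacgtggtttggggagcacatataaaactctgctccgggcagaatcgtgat
Tgfbr1: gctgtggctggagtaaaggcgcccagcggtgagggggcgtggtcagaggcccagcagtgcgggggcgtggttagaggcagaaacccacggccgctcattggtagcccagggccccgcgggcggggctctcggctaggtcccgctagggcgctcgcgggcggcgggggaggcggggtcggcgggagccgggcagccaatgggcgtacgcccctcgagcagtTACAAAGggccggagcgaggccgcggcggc
Tgfbi: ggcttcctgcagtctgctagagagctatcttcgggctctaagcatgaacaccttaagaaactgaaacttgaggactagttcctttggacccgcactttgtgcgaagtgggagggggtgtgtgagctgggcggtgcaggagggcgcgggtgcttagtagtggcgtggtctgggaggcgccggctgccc

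Reads over the 13803 genes, worked back from the deposited values, numbered 6.18 M in the shallowest library and 21.2 M in the deepest (M, 1000000). Axin2, a standard target of beta-catenin, was lower in β-catSD than in WT at both stages (log2 fold change -1.03 ± 0.15 SE at E12.5, adjusted p = 0.000553, and -1.01 ± 0.15 at E13.5, adjusted p = 0.000495) and higher in β-catSO (3.47 ± 0.15, adjusted p = 4.27e-13, and 3.73 ± 0.15, adjusted p = 5.85e-14), as the labels state. The targeted gene Ctnnb1 was lower in β-catSD at E12.5 (-0.31 ± 0.06, adjusted p = 0.0133), and differed by -0.16 at E13.5 (adjusted p = 0.205). The E12.5 call of Ctnnb1 ended without β-catSD replicate 2 or 3 or without WT C57BL/6 replicate 1 or 2 (adjusted p up to 0.122). All 10 stromal markers listed for the check were present (summed level 7970 to 13300 CPM, counts per 1000000 reads, in every library), and Foxd1 itself was lower in β-catSO at both stages (-0.77 ± 0.15, adjusted p = 0.00149, and -1.26 ± 0.15, adjusted p = 1.77e-06). Other cell types were also present. In the table were 14 of 15 macrophage, 14 of 14 endothelial, 8 of 8 smooth muscle and 10 of 10 nephron progenitor markers. Their levels are given beside results they move with. Summed erythroid markers (7 of 10 in the table) were at 3220 to 3330 CPM in WT CD1 at E12.5, against 66.9 to 980 CPM in β-catSO. In WT C57BL/6 at E12.5 they were at 577 to 840 CPM, against 19.6 to 73.6 CPM in β-catSD. At E13.5 they ran from 50.1 to 4050 CPM in WT CD1 and from 82.7 to 586 CPM in β-catSO. In the other line they ran from 51.9 to 1190 CPM in WT C57BL/6 and from 29 to 62.4 CPM in β-catSD. Liver transcripts stood out in WT C57BL/6 E12.5 replicate 3 (summed level 3870 CPM) and WT CD1 E13.5 replicate 3 (827 CPM), and reached 184 to 199 CPM in the WT CD1 E12.5 libraries, against at most 5.9 CPM elsewhere. WT CD1 E13.5 replicate 1 stood apart in ureteric bud markers (330 CPM, against at most 128 CPM in any other library). Of the 24 libraries it was also the highest in endothelial (966 CPM), erythroid (4050 CPM) and nephron progenitor markers (737 CPM). It was the lowest in stromal markers (7970 CPM).

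Levels are given as log2 CPM, on the deposited scale. To set genes against each other, this level was also divided by the length of the gene's exons (log2 CPM per kilobase, kb). By that measure Tgfbi was the highest of the 7 genes in 24 of 24 libraries, with a median of 7.68. Tgfbr1 (median 4.88), Tgfb3 (4.82) and Tgfb2 (4.76) lay close together, followed by Tgfbr2 (3.42) and Tgfbr3 (3.05). Tgfb1 was the lowest gene in 18 of 24 libraries (median 2.12). Read counts per library ran from 75 for Tgfb1 to 14416 for Tgfbi, so counting error is larger for Tgfb1 than for the other members.

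On GRCm38 (GENCODE M21) Tgfb1 lies at chr7:25687002-25705077 (plus strand), Tgfb2 at chr1:186622792-186705989 (minus), Tgfb3 at chr12:86056745-86079041 (minus) and Tgfbi at chr13:56609523-56639562 (plus). The receptor genes lie at chr4:47353222-47414931 (plus) for Tgfbr1, chr9:116084293-116175360 (minus) for Tgfbr2 and chr5:107106570-107289629 (minus) for Tgfbr3. Counts were of whole genes, so exons and transcripts of one gene are not separated.

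**Figure D1:**
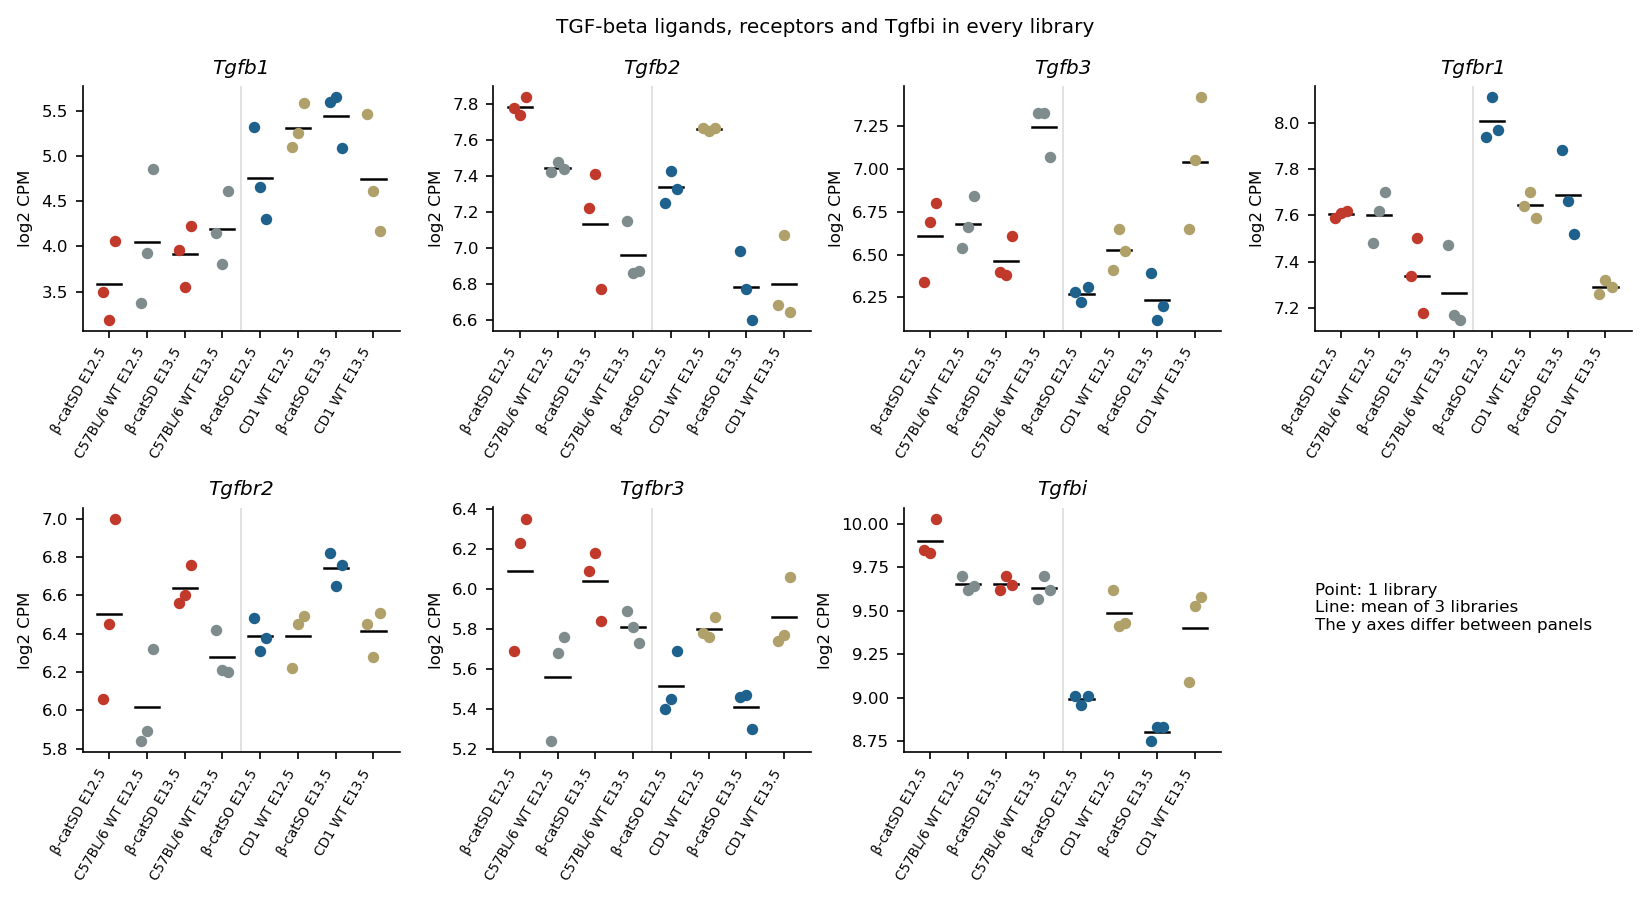
Level of each gene (log2 CPM, y axis) in every library, by group (x axis). Points are libraries and lines are means of 3 libraries. Tgfbi sits at 8.75 to 9.01 in the 6 β-catSO libraries and at 9.09 or above in every other library, and Tgfb3 sits at 6.12 to 6.61 in the mutants at E13.5, with every WT library at that stage at 6.65 or above.

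Mutant and WT cells of the same strain and stage were compared gene by gene with limma over all 13803 genes, and a gene was called at an adjusted p under 0.05. In β-catSD at E12.5, 0 of the 7 members were called, where 1.72% of all genes were, and voom weights gave 0 as well. With replicate number added as a block, Tgfbr2 and Tgfbr3 passed. An unadjusted p under 0.05 was found for 4 members (Tgfb2, Tgfbr2, Tgfbr3 and Tgfbi, with positive values) and for 1917 of all 13803 genes. In β-catSD at E13.5, 1 member was called, Tgfb3, where 3.4% of all genes were. In β-catSO at E12.5, 2 members were called (Tgfbr1 higher, Tgfbi lower), where 8.16% of all genes were. In β-catSO at E13.5, 4 members were called (Tgfbr1 higher and Tgfb3, Tgfbr3 and Tgfbi lower), where 15.4% of all genes were. Groups did not overlap for 2 members in β-catSD at each stage (16% of all genes at E12.5 and 21.2% at E13.5), and for 5 members in β-catSO at each stage (31.1% of all genes at E12.5 and 27.9% at E13.5).

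**Figure D2:**
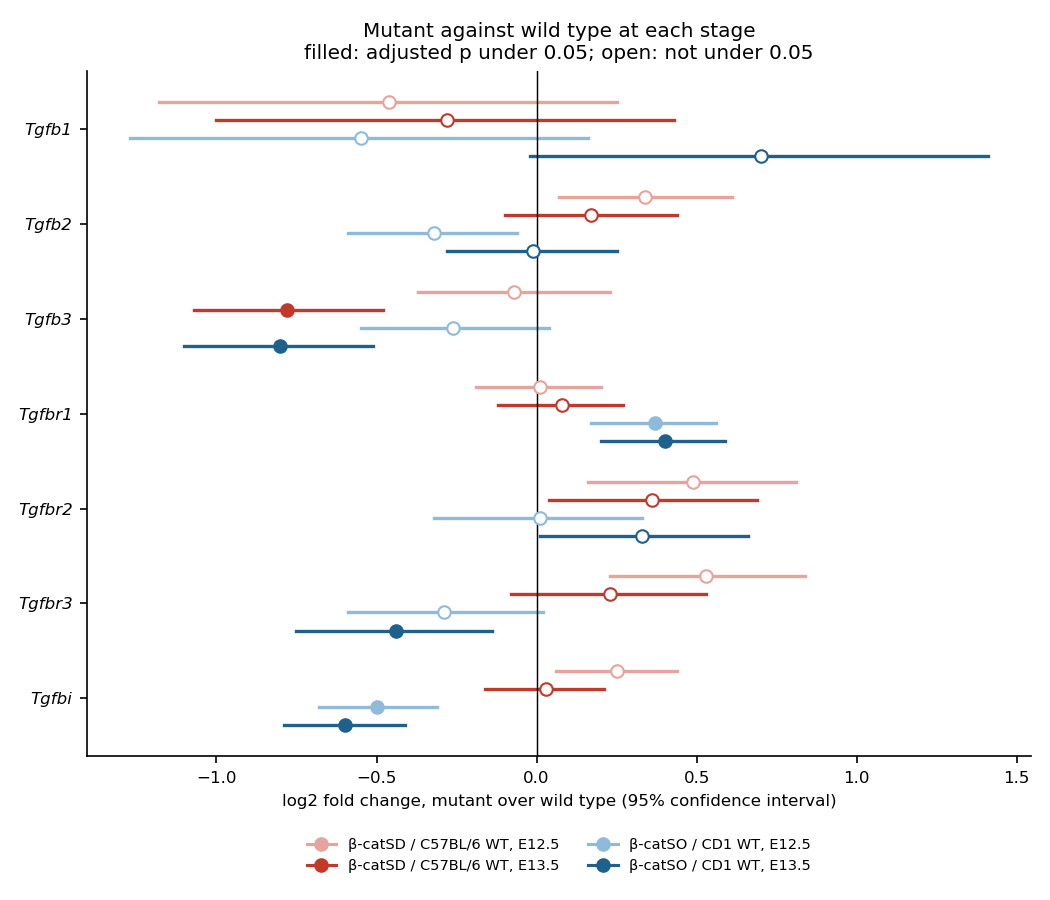
Log2 fold change of mutant over WT (x axis) with its 95% confidence interval for each gene (y axis), in 4 comparisons. Filled points have an adjusted p under 0.05. Tgfb3 at E13.5 lies at -0.78 in β-catSD and -0.80 in β-catSO, Tgfbi lies below 0 in β-catSO alone, and the intervals of Tgfb1 are the widest.

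Tgfb3, the ligand gene best known for its part in palate fusion, was lower in both mutants at E13.5. In β-catSD at E13.5 the 3 libraries held 6.40, 6.38 and 6.61 log2 CPM, against 7.33, 7.33 and 7.07 in WT C57BL/6. Every mutant library lay below every WT library, and the gap between the groups was wider than the range within either. The fold change was -0.78 ± 0.14 on the log2 scale (0.584-fold, adjusted p = 0.00252), lower in 3 of 3 libraries. In β-catSO at E13.5 the libraries held 6.39, 6.12 and 6.2, against 6.65, 7.05 and 7.42 in WT CD1. The groups again did not overlap, although the WT CD1 libraries were spread over a wide range, with replicate 1 the lowest and replicate 3, which held liver transcripts, the highest. The fold change was -0.80 ± 0.14 (0.573-fold, adjusted p = 0.000284), and without WT CD1 E13.5 replicate 3 it was -0.61 (adjusted p = 0.00353).

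At E12.5 Tgfb3 was 6.61 ± 0.24 in β-catSD and 6.68 ± 0.15 in WT C57BL/6 (SD, n = 3 each), with overlapping groups (-0.07 ± 0.14, adjusted p = 0.897). It was 6.27 ± 0.05 in β-catSO and 6.53 ± 0.12 in WT CD1 at E12.5 (SD, n = 3 each), with groups that did not overlap and a difference that did not pass the test (-0.26 ± 0.14, adjusted p = 0.317). The test of the difference between stages did not pass in either line: -0.71 ± 0.20 for the β-catSD effect (adjusted p = 0.827) and -0.55 ± 0.20 for the β-catSO effect (adjusted p = 0.196). In the β-catSD line limma called 0 of the 13803 genes for such a difference, with 753 at an unadjusted p under 0.05 and 0 calls with voom weights, and in the β-catSO line 1.33% of all genes were called. Among the 7 members, Tgfb3 was the 1 gene with an unadjusted p under 0.05 for a stage difference of the β-catSD effect. Tgfb1 and Tgfb3 were the 2 for the β-catSO effect, where 2093 of the 13803 genes had one. The β-catSO value passed without WT CD1 E13.5 replicate 1 (-0.74, adjusted p = 0.0231).

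Smooth muscle markers went the other way from Tgfb3 in the β-catSO line at E13.5. Their summed level was 442 to 675 CPM in β-catSO, against 117 to 182 CPM in WT CD1. Over the 24 libraries of both lines the list mean and Tgfb3 had r = -0.635. The summed level of cartilage markers lay above the wild-type range in both mutants at E13.5: 344 to 362 CPM in β-catSO, against 155 to 202 CPM in WT CD1, and 227 to 299 CPM in β-catSD, against 149 to 176 CPM in WT C57BL/6. Of the 8 cartilage markers 3 were called higher in β-catSO and 1 in β-catSD, none was at 0 reads in every library of a group, and the list mean and Tgfb3 had r = -0.633 over the 24 libraries. In the β-catSD line at E13.5 the smooth muscle level was 112 to 133 CPM in the mutant and 99.3 to 121 CPM in WT C57BL/6, while macrophage markers were lower (20.5 to 52 CPM, against 203 to 331 CPM in WT, with 12 of the 14 markers called lower and none at 0 reads). When the mean levels of the macrophage, endothelial and erythroid lists were added as covariates, the Tgfb3 fold change at E13.5 was -0.73 in β-catSD (adjusted p = 0.0739), while the β-catSO call held. The part of smooth muscle and cartilage cells was not tested. In bulk libraries of sorted cells, fewer cells of a type and less RNA per cell cannot be told apart. Tgfb3 also lies across from Ttll5 on the opposite strand, and no source used here says whether counting used the strand. Ttll5 itself differed by -0.19 ± 0.17 in β-catSD at E13.5 (adjusted p = 0.687) and by -0.30 ± 0.17 in β-catSO (adjusted p = 0.249).

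Tgfb2, a ligand gene needed for normal kidney development in mice, had differences of opposite sign in the mutants at E12.5, neither of which passed the test. In β-catSD at E12.5 it held 7.78, 7.74 and 7.84 log2 CPM, against 7.42, 7.48 and 7.44 in WT C57BL/6. All 3 mutant libraries were above all 3 WT libraries (0.34 ± 0.13, adjusted p = 0.21). In β-catSO at E12.5 it held 7.25, 7.43 and 7.33, against 7.67, 7.65 and 7.67 in WT CD1. Here every mutant library was below every WT library (-0.32 ± 0.13, adjusted p = 0.132). By E13.5 the groups overlapped in both lines (0.17 ± 0.13 in β-catSD, adjusted p = 0.614, and -0.01 ± 0.13 in β-catSO, adjusted p = 0.969). An antisense gene, Gm29491, and a snoRNA gene, Gm26169, overlap Tgfb2 on the other strand.

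The balance between these ligand genes was read within each library as the log2 ratio of Tgfb3 to Tgfb2 per kb of exon, a measure that scaling of the libraries cannot change. It was chosen after the values were seen and is given without a test. At E12.5 the mean ratio was -0.40 ± 0.23 in β-catSD and 0.01 ± 0.14 in WT C57BL/6, and -0.29 ± 0.13 in β-catSO and -0.36 ± 0.13 in WT CD1 (SD, n = 3 each). By E13.5 it had reached 0.11 ± 0.46 in β-catSD and 1.06 ± 0.16 in WT C57BL/6, and 0.23 ± 0.13 in β-catSO and 1.02 ± 0.47 in WT CD1 (SD, n = 3 each). All 6 WT libraries at E13.5 had ratios of 0.75 or more, while the mutants at that stage ran from -0.25 to 0.62. WT cells of both strains thus held more Tgfb3 than Tgfb2 per kb at E13.5, and every mutant library was below them.

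**Figure D3:**
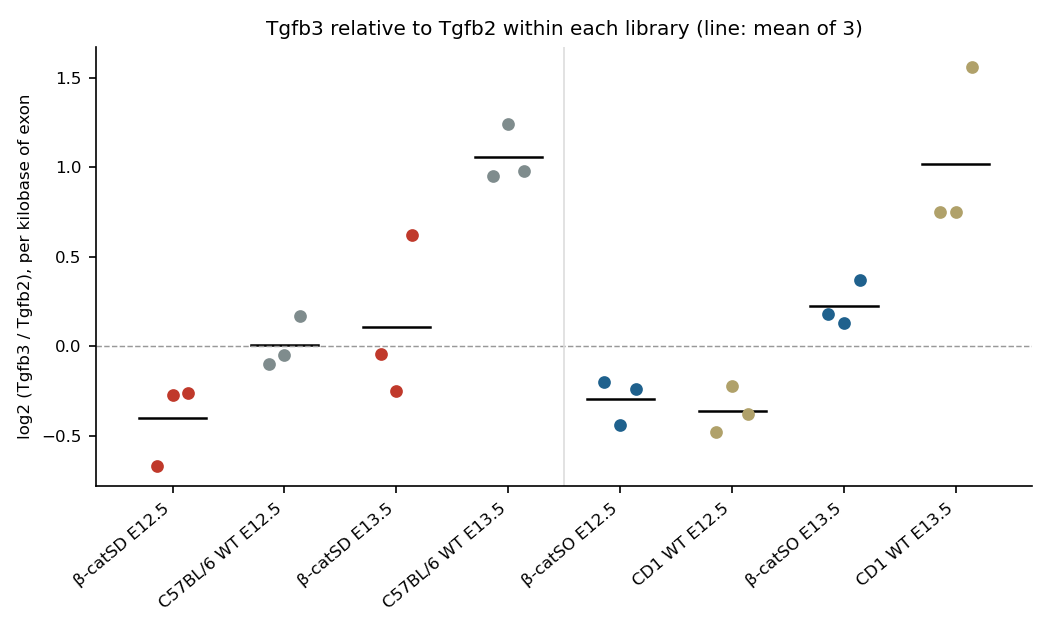
Log2 ratio of Tgfb3 to Tgfb2 per kb of exon (y axis) in every library, by group (x axis). Points are libraries, lines are means of 3, and the dashed line marks equal levels. The WT libraries at E13.5 sit at 0.75 to 1.56, above all other groups.

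Tgfb1, the ligand gene expressed in many blood and vessel cells, was called in none of the 4 comparisons and had the widest intervals. In β-catSO at E13.5 it held 5.60, 5.65 and 5.09 log2 CPM, against 5.46, 4.61 and 4.17 in WT CD1. The groups overlapped through WT CD1 replicate 1 (0.70 ± 0.34, adjusted p = 0.189), and without that library the difference passed the test (1.05, adjusted p = 0.0428). At E12.5 it held 5.32, 4.66 and 4.30 in β-catSO, against 5.10, 5.25 and 5.59 in WT CD1, again overlapping (-0.55 ± 0.34, adjusted p = 0.386). In the other line it was 3.59 ± 0.44 in β-catSD and 4.05 ± 0.75 in WT C57BL/6 at E12.5 (-0.46 ± 0.34, adjusted p = 0.617), and 3.91 ± 0.33 in β-catSD and 4.19 ± 0.40 in WT C57BL/6 at E13.5 (-0.28 ± 0.34, adjusted p = 0.787; levels with SD, n = 3 each).

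Across the 24 libraries Tgfb1 followed the macrophage marker list (r = 0.794, rho = 0.857) and the endothelial list (r = 0.814, rho = 0.798). These are descriptions over libraries that share groups, strain and depth. Summed macrophage markers ran from 482 to 1230 CPM in β-catSO at E13.5 and from 327 to 449 CPM in WT CD1, with 2 of 14 markers called higher and none at 0 reads. Endothelial markers ran from 311 to 474 CPM in β-catSO and from 59.3 to 966 CPM in WT CD1 at that stage. In β-catSD at E13.5, 8 of 14 endothelial markers were called lower and the summed level was 65.5 to 132 CPM, against 154 to 168 CPM in WT C57BL/6. With the same covariates, the Tgfb1 difference in β-catSD at E13.5 turned positive (1.36, adjusted p = 0.0234). The share of Tgfb1 reads that came from such cells was not tested.

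**Figure D4:**
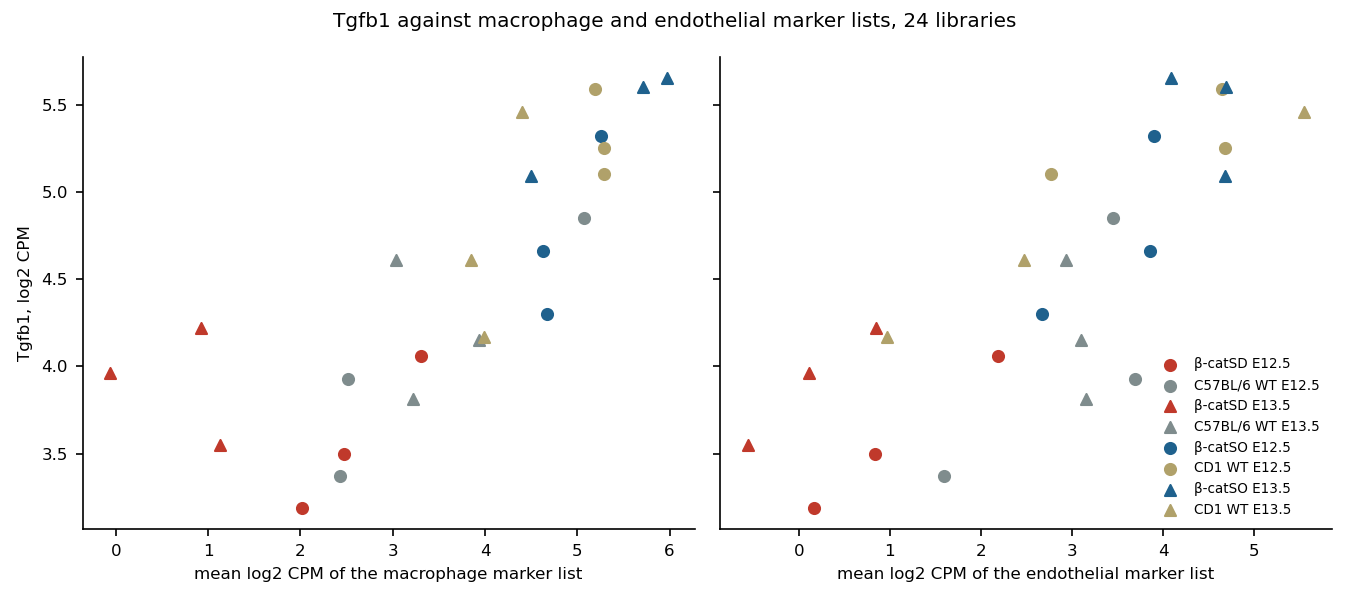
Tgfb1 (log2 CPM, y axis) against the mean log2 CPM of the macrophage list (left) and the endothelial list (right) in 24 libraries, coloured by genotype and strain, with circles for E12.5 and triangles for E13.5. Tgfb1 is higher in libraries with higher list means (r = 0.794 and r = 0.814).

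Tgfbr1, which encodes the type I receptor kinase, was higher in β-catSO at both stages. At E12.5 it held 7.94, 8.11 and 7.97 log2 CPM in β-catSO, against 7.64, 7.70 and 7.59 in WT CD1. At E13.5 it held 7.88, 7.66 and 7.52 in β-catSO, against 7.26, 7.32 and 7.29 in WT CD1. The groups did not overlap at either stage. The fold change was 0.37 ± 0.09 at E12.5 (1.29-fold, adjusted p = 0.015) and 0.40 ± 0.09 at E13.5 (1.32-fold, adjusted p = 0.0049), higher in 3 of 3 libraries each time. The E12.5 call ended without β-catSO replicate 2 (adjusted p = 0.0887), WT CD1 replicate 1 (0.0502) or WT CD1 replicate 3 (0.0664), and with the macrophage, endothelial and erythroid covariates the value was 0.38 at E12.5 (adjusted p = 0.0889) and 0.30 at E13.5 (adjusted p = 0.168), so that neither call held. Over the 24 libraries Tgfbr1 and the smooth muscle list mean had r = 0.72, and Tgfbr1 and the cartilage list mean had r = 0.689. Neither was tested as a source. In β-catSD the difference was 0.01 (95% confidence interval -0.19 to 0.20) at E12.5 and 0.08 (-0.12 to 0.27) at E13.5, with overlapping groups.

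Tgfbr2, which encodes the ligand-binding type II receptor kinase, was higher in β-catSD when both stages were averaged. At E13.5 it held 6.56, 6.60 and 6.76 log2 CPM in β-catSD, against 6.42, 6.21 and 6.2 in WT C57BL/6, with no overlap (0.36 ± 0.16, adjusted p = 0.268). At E12.5 the libraries were more scattered, at 6.06, 6.45 and 7.0 in β-catSD, against 5.84, 5.89 and 6.32 in WT C57BL/6, and they overlapped (0.49 ± 0.16, adjusted p = 0.118). The mean over stages was 0.42 ± 0.11 (adjusted p = 0.0183), and it was lost without β-catSD E13.5 replicate 3 (adjusted p = 0.0534), without WT C57BL/6 E12.5 replicate 1 (0.0529), or with only the 12 libraries of the line (0.0691). At E12.5 the difference passed the test without β-catSD replicate 1 (adjusted p = 0.00614) or without WT C57BL/6 replicate 3, the library with liver transcripts (0.0419). The same covariates brought it past the test at both stages (0.62 at E12.5, adjusted p = 0.0452, and 0.90 at E13.5, adjusted p = 0.0311). In β-catSO it was 0.01 ± 0.16 at E12.5 (adjusted p = 0.988) and 0.33 ± 0.16 at E13.5 (adjusted p = 0.166), and the E13.5 value was -0.07 with the covariates (adjusted p = 0.883).

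Tgfbr3, the betaglycan gene, went up in one mutant and down in the other when the stages were averaged. In β-catSD the mean over stages was 0.38 ± 0.10 (adjusted p = 0.0268), and in β-catSO it was -0.37 ± 0.10 (adjusted p = 0.0148). At E12.5 it held 5.69, 6.23 and 6.35 log2 CPM in β-catSD, against 5.24, 5.68 and 5.76 in WT C57BL/6. The lowest β-catSD library, replicate 1, fell within the WT range (0.53 ± 0.15, adjusted p = 0.0671), and without it the difference passed the test (0.73, adjusted p = 0.00346), as it did without WT C57BL/6 replicate 3 (0.63, adjusted p = 0.0417). At E13.5 it held 5.46, 5.47 and 5.30 in β-catSO, against 5.74, 5.77 and 6.06 in WT CD1. These groups did not overlap (-0.44 ± 0.15, adjusted p = 0.0438), but the call at that stage ended without any 1 of 5 of the 6 libraries, WT CD1 replicate 1 being the exception, with an adjusted p of up to 0.2 without WT CD1 replicate 3. The β-catSD mean over stages was lost without any 1 of 7 of its 12 libraries (adjusted p up to 0.0909, without β-catSD E12.5 replicate 3), the others being β-catSD E12.5 replicate 2, β-catSD E13.5 replicates 1 and 2, WT C57BL/6 E12.5 replicate 1 and WT C57BL/6 E13.5 replicates 2 and 3. This β-catSD call also ended with voom weights (adjusted p = 0.0713), with only the 12 libraries of the line (0.0744) and with the macrophage, endothelial and erythroid covariates (0.15). The β-catSO mean over stages was kept without any 1 of its 12 libraries (adjusted p at most 0.0487). A pseudogene, Gm8145, lies within Tgfbr3 on the other strand, and the annotated genes Gm43422, Gm43423 and Gm42900 overlap it on the same strand. Their part in its counts was not tested. Summed nephron progenitor markers were at 566 to 652 CPM in β-catSD at E12.5, against 433 to 483 CPM in WT C57BL/6. In β-catSO at E13.5 they were at 279 to 340 CPM, against 499 to 737 CPM in WT CD1. Of these 10 markers 1 was called higher in the former and 3 lower in the latter. Over the 24 libraries Tgfbr3 had r = 0.519 with this list mean, -0.618 with smooth muscle and -0.56 with endothelial. None was tested as a source.

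Averaged over stages, 3 of 7 members were called in β-catSD (Tgfb3, Tgfbr2 and Tgfbr3), where 7.17% of all genes were, and 4 of 7 in β-catSO (Tgfb3, Tgfbr1, Tgfbr3 and Tgfbi), where 18.5% of all genes were. Without WT C57BL/6 E12.5 replicate 1 the β-catSD count was 1, Tgfb3. The median fold change of the members was 0.14 in β-catSD and -0.17 in β-catSO, and that of all genes was 0 in both. The mean over stages for Tgfb3 was -0.42 ± 0.10 in β-catSD (adjusted p = 0.0102) and -0.53 ± 0.10 in β-catSO (adjusted p = 0.00046). With the macrophage, endothelial and erythroid covariates the β-catSD call of Tgfb3 ended (adjusted p = 0.074).

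Tgfbi, whose product binds integrins and collagen, was lower in β-catSO and had the smallest adjusted p of the 7 members in that line. At E12.5 it held 9.01, 8.96 and 9.01 log2 CPM in β-catSO, against 9.62, 9.41 and 9.43 in WT CD1. At E13.5 it held 8.75, 8.83 and 8.83 in β-catSO, against 9.09, 9.53 and 9.58 in WT CD1. All 6 β-catSO libraries were below all 18 others of the series. The WT CD1 library nearest to them was E13.5 replicate 1, the one highest in ureteric bud markers and lowest in stromal markers. The fold change was -0.50 ± 0.09 at E12.5 (0.709-fold, adjusted p = 0.000813) and -0.60 ± 0.09 at E13.5 (0.66-fold, adjusted p = 3.7e-05). Both calls held without any 1 library (adjusted p at most 0.00994 at E12.5 and 0.000562 at E13.5) and in the other alternatives run. In β-catSD the libraries at E12.5 held 9.85, 9.83 and 10.03, against 9.70, 9.62 and 9.64 in WT C57BL/6, all higher but not past the test (0.25 ± 0.09, adjusted p = 0.184). At E13.5 they overlapped (0.03 ± 0.09, adjusted p = 0.94).

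Of 10 stromal markers, 6 were called lower and 3 higher in β-catSO at E13.5, with a median of -0.40. At E12.5, 2 were called lower and 0 higher. Their summed level at E13.5 overlapped, at 10700 to 11500 CPM in β-catSO and 7970 to 11900 CPM in WT CD1. The stromal list mean had r = 0.716 with Tgfbi over the 24 libraries. Smooth muscle and cartilage list means ran the other way (r = -0.708 and r = -0.712). At E13.5, 5 of 8 smooth muscle markers and 3 of 8 cartilage markers were called higher in β-catSO. Their part in the lower Tgfbi was not tested.

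The effect of stabilised beta-catenin was then set against that of its deficiency, as the β-catSO effect minus the β-catSD effect averaged over stages. Of the 7 members 4 were called, where 17.9% of all genes were. Tgfbr1 had the higher value in β-catSO (difference 0.34 ± 0.09, adjusted p = 0.0135). Tgfb2 (-0.42 ± 0.13, adjusted p = 0.0239), Tgfbr3 (-0.75 ± 0.15, adjusted p = 0.000844) and Tgfbi (-0.69 ± 0.09, adjusted p = 6.01e-06) had the lower. These 4 calls held without any 1 of the 24 libraries. With the cell type covariates the difference was -0.38 for Tgfb2 (adjusted p = 0.276) and 0.19 for Tgfbr1 (adjusted p = 0.451), and neither passed. For Tgfb3, lower in both mutants, the difference was -0.11 with a 95% confidence interval of -0.40 to 0.19 (adjusted p = 0.68). Tgfb1 (0.45 ± 0.34, adjusted p = 0.424) and Tgfbr2 (-0.26 ± 0.16, adjusted p = 0.294) did not pass. With the covariates the Tgfbr2 difference was -0.82 and passed (adjusted p = 0.0111), and that of Tgfb1 was -0.76 (adjusted p = 0.102).

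In WT cells the stage itself was compared, E13.5 over E12.5. The same 3 members were called in C57BL/6 (where 3.96% of all genes were) and in CD1 (5.42%). Tgfb2 held 7.15, 6.86 and 6.87 log2 CPM at E13.5, against 7.42, 7.48 and 7.44 at E12.5, in WT C57BL/6. In WT CD1 it held 6.68, 7.07 and 6.64 at E13.5, against 7.67, 7.65 and 7.67 at E12.5. It was thus lower in every later library of both strains, with a log2 fold change of -0.49 ± 0.13 in C57BL/6 (adjusted p = 0.0353) and -0.87 ± 0.13 in CD1 (adjusted p = 0.000349). Tgfbr1 was lower at E13.5 too, at 7.26 ± 0.18 against 7.60 ± 0.11 at E12.5 in C57BL/6 (-0.33 ± 0.09, adjusted p = 0.0461) and at 7.29 ± 0.03 against 7.64 ± 0.05 in CD1 (-0.35 ± 0.09, adjusted p = 0.0312; levels with SD, n = 3 each). Tgfb3 was higher at E13.5, by 0.56 ± 0.14 in C57BL/6 (adjusted p = 0.0294) and 0.51 ± 0.14 in CD1 (adjusted p = 0.0371). Stages did not overlap for these 3 genes in C57BL/6 (24.5% of all genes), nor for Tgfb2 and Tgfbr1 in CD1 (24.9%), while Tgfb3 overlapped in CD1 through E13.5 replicate 1. The Tgfb2 call in CD1 held without any 1 library (adjusted p at most 0.00461). The other 5 calls each ended without any 1 of 5 or all 6 of the libraries, with adjusted p of up to 0.156 for Tgfb2 in C57BL/6 without E13.5 replicate 3, 0.114 for Tgfb3 in C57BL/6 without E12.5 replicate 1, 0.207 for Tgfbr1 in C57BL/6 without E13.5 replicate 3, 0.227 for Tgfb3 in CD1 without E13.5 replicate 3 and 0.108 for Tgfbr1 in CD1 without E12.5 replicate 2. The libraries whose removal kept a call were WT C57BL/6 E13.5 replicate 1 for Tgfb2 and Tgfbr1, WT C57BL/6 E12.5 replicate 3 for Tgfb3, and WT CD1 E13.5 replicate 1 for Tgfb3.

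Between the WT strains, averaged over stages, 1 member was called, where 4.46% of all genes were. Tgfb1 held 3.37, 3.93 and 4.85 log2 CPM at E12.5 and 4.15, 3.81 and 4.61 at E13.5 in WT C57BL/6, against 5.10, 5.25 and 5.59 at E12.5 and 5.46, 4.61 and 4.17 at E13.5 in WT CD1. The strains did not overlap at E12.5 and overlapped at E13.5. Tgfb1 was lower in C57BL/6 than in CD1 (mean 4.12 and 5.03 log2 CPM, difference -0.91 ± 0.24, adjusted p = 0.0369). Summed macrophage markers ran from 118 to 743 CPM at E12.5 and 203 to 331 CPM at E13.5 in WT C57BL/6, against 808 to 837 CPM at E12.5 and 327 to 449 CPM at E13.5 in WT CD1. With the macrophage, endothelial and erythroid covariates the difference was -0.19 (adjusted p = 0.822). Leaving out any 1 of 9 of the 12 libraries also ended the call (adjusted p up to 0.122, without WT C57BL/6 E12.5 replicate 1), the exceptions being WT C57BL/6 E12.5 replicate 3, WT C57BL/6 E13.5 replicate 3 and WT CD1 E13.5 replicate 3. Without the last of these Tgfbi was called as well, higher in C57BL/6 (0.24, adjusted p = 0.0298).

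Ordered by mean level over the 8 groups, neighbours mostly overlapped. All 7 neighbouring pairs of groups overlapped for Tgfb1, Tgfbr2 and Tgfbr3, as did 6 of 7 for Tgfb3 and Tgfbr1, 5 of 7 for Tgfb2 and 4 of 7 for Tgfbi. The order of Tgfb1 ran from β-catSO E13.5 (5.45 ± 0.31) to β-catSD E12.5 (3.59 ± 0.44), with the 4 CD1-line groups above the 4 C57BL/6-line groups (SD, n = 3 each). Tgfb2 put the 4 E12.5 groups above the 4 E13.5 groups, from β-catSD E12.5 (7.79 ± 0.05) to β-catSO E13.5 (6.78 ± 0.19).

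The genes whose levels followed each member most closely over the 24 libraries were taken from 12196 genes by Pearson's r. For Tgfbi they were Ghr, the growth hormone receptor gene (r = 0.95, rho = 0.837), Mmp14, a membrane-bound matrix protease (r = 0.948, rho = 0.79), and Boc, a hedgehog co-receptor (r = 0.945, rho = 0.857). Tgfbr3 was followed by Cdon, another hedgehog co-receptor (r = 0.904), Adamtsl1 and Adamts12. Tgfbr2 was followed by Filip1l (r = 0.91), the matrix gene Tnc and the growth factor gene Igf1. For Tgfbr1 they were the transcription factor genes Zfhx4 (r = 0.932) and Tbx1, with Med13l. Tgfb1 was followed by Zc3hav1 (r = 0.919), Il6ra, which encodes the interleukin 6 receptor, and the blood cell kinase gene Lyn. Tgfb2 was followed by Arhgap20 (r = 0.931), Nynrin and Kdm5b, and Tgfb3 by Cpne3 (r = 0.884), Ccdc125 and Ssfa2. These are the top of a long ranking, over libraries that share groups.

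The rest of the pathway was described by 3 gene lists. They were chosen with earlier results of these data known, so their shares called, set beside those of all genes, are descriptions. The first holds genes of latency, activation and access of the ligand, of which 25 were measured. In β-catSD at E12.5, 3 were called higher and 0 lower. They were Itgav, the alpha-v integrin that frees latent TGF-beta (0.53 ± 0.11, adjusted p = 0.014), the proteoglycan gene Bgn (0.66 ± 0.16, adjusted p = 0.0329) and Lrrc32, which encodes the latent TGF-beta docking protein GARP (1.11 ± 0.27, adjusted p = 0.0354). At E13.5, 3 were higher and 1 lower. Itgav was again higher (0.66 ± 0.11, adjusted p = 0.00139), with its partner Itgb5 (0.39 ± 0.09, adjusted p = 0.0134) and the matrix protease Mmp2 (0.42 ± 0.10, adjusted p = 0.0152). Nrros, a docking protein of myeloid cells, was lower (-1.89 ± 0.46, adjusted p = 0.0221), beside macrophage markers of which 12 of 14 were lower. With 1 of the 6 libraries left out, Nrros passed only without β-catSD replicate 2 (adjusted p up to 0.102 otherwise), and with voom weights its adjusted p was 0.547. With the cell type covariates no call of this list in β-catSD was kept at E13.5, and the values were 0.58 for Itgav (adjusted p = 0.082), 0.34 for Itgb5 (0.324) and 0.19 for Mmp2 (0.635). At E12.5 the calls of Itgav (0.38, adjusted p = 0.139), Bgn (0.74, 0.0544) and Lrrc32 (0.97, 0.107) ended in that fit too. The share called was 12% at E12.5, against 1.72% of all genes, and 16% at E13.5, against 3.4%. The median of the list was 0.13 at E12.5 and -0.01 at E13.5.

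In β-catSO at E12.5, 1 gene of this list was higher and 2 lower: Ltbp1, the latent TGF-beta binding protein (1.05 ± 0.20, adjusted p = 0.0012), Itgb5 (-0.50 ± 0.09, adjusted p = 0.000509) and Mmp14 (-0.48 ± 0.09, adjusted p = 0.00111). At E13.5, 9 were higher and 3 lower, and the median was 0.32, against -0.01 for all genes. Ltbp1 (1.93 ± 0.20, adjusted p = 2.34e-07) and Thbs1, an activator of latent TGF-beta (1.42 ± 0.20, adjusted p = 1.78e-05), had the smallest adjusted p, followed by the proteoglycan Lum (1.8 ± 0.34, adjusted p = 0.000499), Itgb1 (0.32 ± 0.06, adjusted p = 0.000516) and Bgn (0.83 ± 0.16, adjusted p = 0.000703). Under the covariates those of Lum (0.84, adjusted p = 0.205), Itgb1 (0.26, 0.0658) and Bgn (0.62, 0.0956) did not pass. The share called was 12% at E12.5, against 8.16% of all genes, and 48% at E13.5, against 15.4%. The 3 lower genes were Lrrc32 (-0.97 ± 0.27, adjusted p = 0.016), Itgb5 (-0.26 ± 0.09, adjusted p = 0.0428) and Mmp14 (-0.37 ± 0.09, adjusted p = 0.00583), the last named after its value was seen. The Lrrc32 call ended without β-catSO replicate 1 or WT CD1 replicate 3 (adjusted p up to 0.111), and the Itgb5 call without β-catSO replicate 1 or 3 or WT CD1 replicate 2 or 3 (up to 0.222). Lrrc32 and Itgb5 were thus called higher in one stage of β-catSD and lower in at least one of β-catSO, and Bgn was called higher in one stage of each.

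The second list holds co-receptors, Smads and their regulators, of which 34 were measured. In β-catSD, 0 were called at E12.5 (limma, also 0 with voom weights, and 5 at an unadjusted p under 0.05) and 1 at E13.5, Skil, a Smad co-repressor that TGF-beta induces (0.41 ± 0.10, adjusted p = 0.0292). With 1 of the 6 libraries left out, Skil passed the test only without WT C57BL/6 replicate 1 (adjusted p up to 0.177 otherwise). The second list had 1 call at E12.5 without β-catSD replicate 1 or 2, and at E13.5 it had 2 without WT C57BL/6 replicate 1 and 0 without any 1 of the other 5 libraries. In β-catSO at E12.5, 4 were higher and 0 lower: the kinase gene Map3k7 (0.38 ± 0.08, adjusted p = 0.00295), the co-repressor Tgif1 (0.63 ± 0.13, adjusted p = 0.0035), Smad4 (0.27 ± 0.07, adjusted p = 0.0143) and Tab2, an adaptor of Map3k7 (0.27 ± 0.08, adjusted p = 0.0397). Tab2 failed the test when any 1 of the 6 libraries was left out (adjusted p at most 0.124), and Smad4 without β-catSO replicate 2 or WT CD1 replicate 1 or 2 (up to 0.0847), each of which left 2 calls in the list. The calls of Map3k7 (0.37, adjusted p = 0.0525), Smad4 (0.18, 0.348) and Tab2 (0.27, 0.194) ended with the covariates. The share called was near that of all genes in β-catSD at E13.5 (2.94%, against 3.4%) and in β-catSO at E12.5 (11.8%, against 8.16%), and it was 32.4% in β-catSO at E13.5, against 15.4%. At E13.5, 8 were higher and 3 lower. Among them were the focal adhesion adaptor gene Tgfb1i1 (1.02 ± 0.14, adjusted p = 1.56e-05), Tgif1 (0.88 ± 0.13, adjusted p = 4.4e-05), the pseudoreceptor Bambi (1.45 ± 0.23, adjusted p = 5.55e-05) and Map3k7 (0.32 ± 0.08, adjusted p = 0.00615), all higher, and the deubiquitinase Usp15 (-0.31 ± 0.08, adjusted p = 0.00763), lower. The Usp15 call ended without β-catSO replicate 3 (adjusted p = 0.0662) and with the covariates (-0.30, adjusted p = 0.118). This last count of 11 came to 6 without β-catSO replicate 2, 5 without β-catSO replicate 3 and 5 without WT CD1 replicate 3, and 6 without the libraries highest in liver transcripts.

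The third list holds genes known to respond to TGF-beta, of which 36 were measured. In β-catSD, 1 was called higher at each stage, the matrix gene Tnc at E12.5 (1.03 ± 0.23, adjusted p = 0.021) and Skil at E13.5. The Tnc call ended without β-catSD replicate 2 or 3 or WT C57BL/6 replicate 1 or 2 (adjusted p at most 0.168). At E12.5 the list had 3 calls without β-catSD replicate 1, and at E13.5 it had 2 without β-catSD replicate 2 and 0 without β-catSD replicate 3 or WT C57BL/6 replicate 2 or 3. In β-catSO at E12.5, 3 were higher and 1 lower: Twist1 (0.86 ± 0.16, adjusted p = 0.00088), Tgif1 and Cdkn2b higher, and Bhlhe40 lower (-1.21 ± 0.32, adjusted p = 0.0178). Cdkn2b, a cell cycle inhibitor, had 26 reads in the β-catSO group and 2 in WT CD1 at E12.5, a 19.9-fold ratio (exact 95% interval 4.99 to 173, counting error only). By library these were 9, 5 and 12 reads in β-catSO and 2, 0 and 0 in WT CD1. Cdkn2b exceeded a log2 CPM of 0 in β-catSO libraries only. It thus met the low-level filter through the mutant where it was high, so its calls there, at both stages, are a description. The Bhlhe40 call ended without β-catSO replicate 1 or 2 or WT CD1 replicate 1 or 2 (adjusted p at most 0.0824). Cdkn2b lost its call without β-catSO replicate 1 or 3 or WT CD1 replicate 2 or 3 (up to 0.0994). The list had 2 calls without β-catSO replicate 1 or WT CD1 replicate 2. Its share called was near that of all genes at these points: 2.78% at each stage of β-catSD, against 1.72% at E12.5 and 3.4% at E13.5, and 11.1% in β-catSO at E12.5, against 8.16%. In β-catSO at E13.5, 19 were higher and 2 lower, 58.3% of the list (15.4% of all genes), and the median was 0.64, against -0.01 for all genes. By adjusted p they were led by the contractile genes Acta2 (2.30 ± 0.27, adjusted p = 1.86e-06) and Tagln (2.50 ± 0.30, adjusted p = 2.56e-06), then Ctgf (2.01 ± 0.25, adjusted p = 3.64e-06), the filament gene Vim (0.60 ± 0.08, adjusted p = 1.71e-05) and Tgif1. Tnc was higher as well (0.76 ± 0.23, adjusted p = 0.0274), a call that ended without β-catSO replicate 2 or 3 or WT CD1 replicate 1 or 3 (adjusted p up to 0.128) and with the covariates (0.32, adjusted p = 0.605). Acta2, Tagln and Cnn1 also stand in the smooth muscle marker list, whose summed level was 442 to 675 CPM in β-catSO and 117 to 182 CPM in WT CD1. The part of smooth muscle cells in these counts was not tested. Of the measured genes, Tgif1, Skil, Smad7 and Pmepa1 stand in both the second and the third list. Col1a1, Col3a1 and Snai2 of the third list also stand in the stromal marker list, and Eng of the second in the endothelial list.

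The member named for its induction by TGF-beta moved against most of that list: at E13.5 in β-catSO, Tgfbi was lower while 19 of the 36 genes were higher. With the cell type covariates, calls in β-catSO at E13.5 numbered 14 in the third list, 5 in the first and 4 in the second. Without any 1 library, calls in the third list at E13.5 numbered 18 to 21 and in the first 8 to 13. The counts of the first list in β-catSD turned on single libraries: at E12.5 the 3 calls of the first list came to 1 without β-catSD replicate 2 and to 0 without β-catSD replicate 3, WT C57BL/6 replicate 1 or WT C57BL/6 replicate 2. At E13.5 its 4 calls came to 1 without β-catSD replicate 1 and to 2 without β-catSD replicate 3, WT C57BL/6 replicate 1 or WT C57BL/6 replicate 2.

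**Figure D5:**
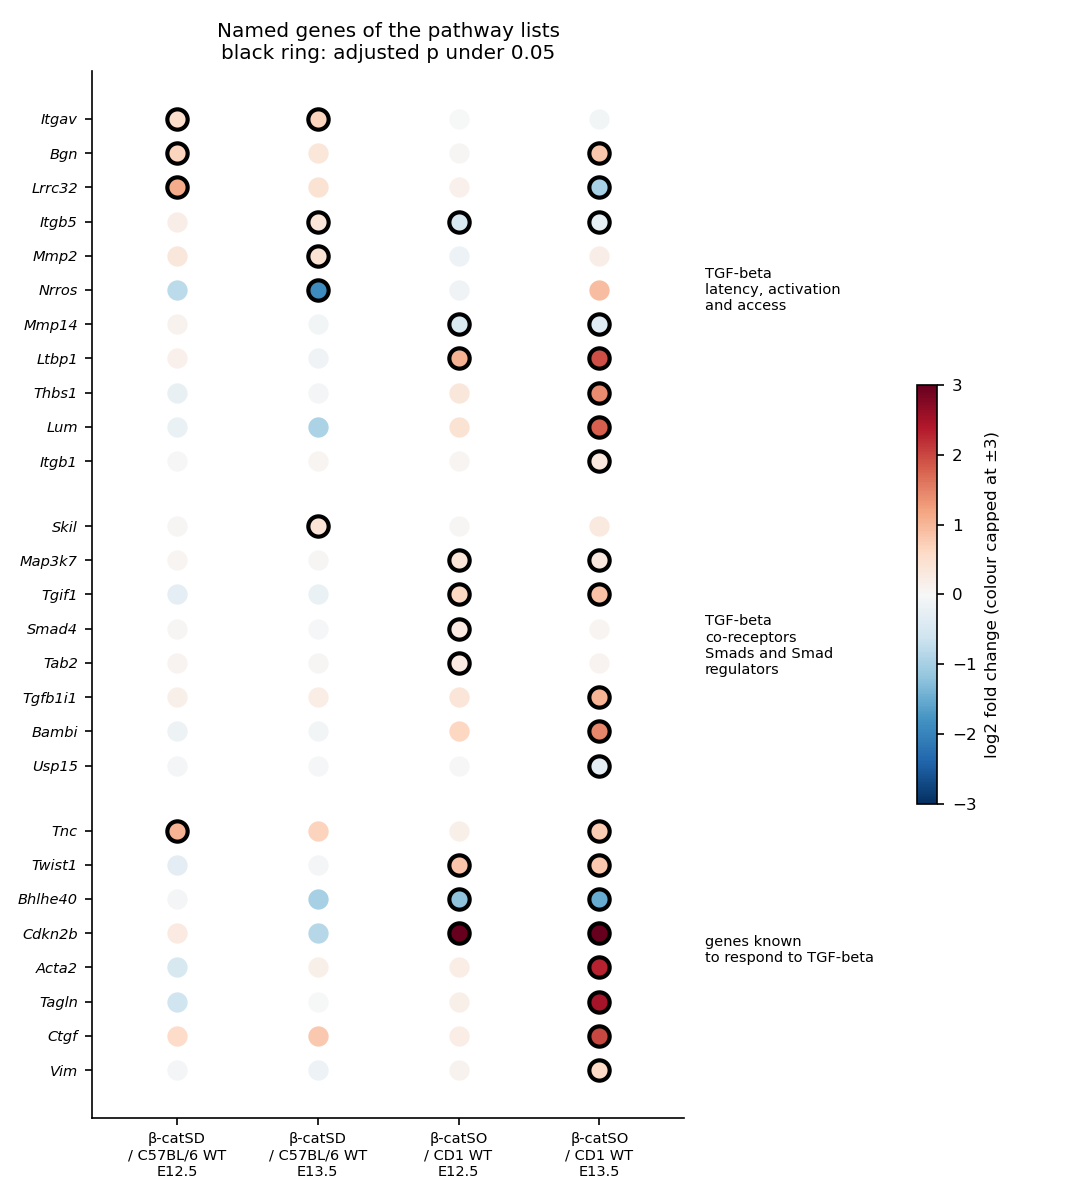
Log2 fold change of mutant over WT (colour, capped at 3 in either direction) for the named genes of the 3 lists (rows) in 4 comparisons (columns). A black ring marks an adjusted p under 0.05. Most rings of the third list stand in the β-catSO E13.5 column, Acta2 (2.30) and Tagln (2.50) among them.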

How the data were processed

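RNA-seq libraries of sorted kidney stromal cells were analysed, 3 in each of 8 groups (24 libraries, 13803 genes). Per the submitters' processing notes, reads were aligned to mm10 with HISAT2, counted with HTSeq and handled with limma, with no versions stated. The authors deposited log2 counts per 1000000 reads (log2 CPM), which match the voom scale: 0.5 was added to each count and library sizes were TMM-scaled, and 100% of values came out within 0.1 of a whole read. Depth, as reads over the 13803 genes worked back from these values, was 6.18 to 21.2 M.

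Group means over the 24 libraries were fitted with limma 3.58.1 (R 4.3.3) with a trended prior, 16 residual and 6.43 prior degrees of freedom. Tests were two-sided, with Benjamini-Hochberg adjustment over 13803 genes in each of 12 contrasts. The low-level filter (log2 CPM above 0 in 3 libraries) removed 0 genes. Errors of fold changes are standard errors. Levels per kb used exon lengths of GENCODE M21. Figures used Python 3.11.15 and matplotlib 3.10.9.

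The genes and lists were chosen with earlier results of these data known. In each comparison within a stage the called genes with the 5 smallest adjusted p of a list were named, with those called in both mutants, and the 3 genes most like each of the 7. Replicate numbers were not used as pairs in the main fits: 2 of 12 same-numbered pairs correlated over 0.1. Both were among the β-catSD and WT C57BL/6 pairs at E12.5 (r = 0.198, 0.0715 and 0.276 for replicates 1, 2 and 3), so pairing there was not excluded. Alternatives were log2(CPM + 1), other filters, voom weights, other scalings, 12 libraries of one line, a replicate block, cell type covariates, each library left out, and, chosen after seeing the data, the pair of libraries highest in liver transcripts left out.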

Additional observations from a re-analysis of the deposited data

Results flagged for a closer look

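In the list of genes known to respond to TGF-beta, the β-catSO effect was larger at E13.5 than at E12.5 for 6 of 36 genes by limma's test of that difference (1.33% of all genes were called), and the median difference was 0.58. This count came to 3 without any 1 of 5 libraries (β-catSO E12.5 replicate 1, β-catSO E13.5 replicate 3, WT CD1 E12.5 replicates 2 and 3 and WT CD1 E13.5 replicate 3), and to 3 with the cell type covariates. The 4 that are named in the report were Acta2 (difference 2.08 ± 0.39 SE on the log2 scale, adjusted p = 0.00848), Tagln (2.31 ± 0.43, adjusted p = 0.00858), Ctgf (1.78 ± 0.36, adjusted p = 0.0138) and Vim (0.50 ± 0.12, adjusted p = 0.0395). Such a difference also holds the change in WT CD1, where 0 of the 36 genes were called higher at E13.5 and 8 lower (22.2%, against 5.42% of all genes). From E12.5 to E13.5 in WT CD1, mean log2 CPM went from 7 to 5.88 for Acta2, 6.27 to 4.67 for Tagln, 4.47 to 3.69 for Ctgf and 9.67 to 9.55 for Vim. In β-catSO the means went from 7.22 to 8.18, 6.45 to 7.17, 4.69 to 5.70 and 9.77 to 10.15. Smooth muscle markers, which include Acta2 and Tagln, were at 442 to 675 CPM in β-catSO and 117 to 182 CPM in WT CD1 at E13.5, and at 302 to 364 CPM in β-catSO and 291 to 342 CPM in WT CD1 at E12.5, and their part was not tested. The Vim difference ended without any 1 of 8 of the 12 libraries (adjusted p up to 0.115), namely β-catSO E12.5 replicates 1 and 2, β-catSO E13.5 replicates 2 and 3, WT CD1 E12.5 replicates 2 and 3 and WT CD1 E13.5 replicates 2 and 3. With the cell type covariates the Ctgf difference was about as large (1.63) and did not pass (adjusted p = 0.0822), as was the case for Vim (0.51, adjusted p = 0.0708). Of the 7 TGF-beta members 0 were called with all libraries (2 at an unadjusted p under 0.05, as were 2093 of all 13803 genes), and Tgfb3 was called without WT CD1 E13.5 replicate 1 (-0.74, adjusted p = 0.0231).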

How the results depend on the processing

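Reads per library were fewest for Tgfb1, down to 75. Of 84 results for the 7 genes, the direction and the side of the threshold were kept for 84 with log2(CPM + 1), with no filter and with a mean log2 CPM above 1, for 80 with voom weights, 82 with totals without TMM, 83 with median-of-ratios scaling, 64 of 70 with 12 libraries of the line, 81 with a replicate block, 52 with the macrophage, endothelial and erythroid covariates and 71 without the pair of libraries highest in liver transcripts, and for 752 of 840 with 1 library left out. The covariates differ between the groups themselves, so that in those fits cell content and genotype cannot be told apart. The causes of the changes below were not tested.

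The number of the 7 genes called in β-catSD at E12.5 (0) came to 2 with the replicate block, where Tgfbr2 and Tgfbr3 passed (adjusted p = 0.0226 and 0.0106), to 1 with the covariates, to 2 without the liver-rich libraries and to 0 to 2 with 1 library left out. With the covariates it was 2 in β-catSD at E13.5, 1 in β-catSO at E12.5, 0 for stage in WT C57BL/6, 1 for stage in WT CD1 and 0 for strain. Without the liver-rich libraries it was 1 for stage in either strain and 2 for strain. With 12 libraries of the line it was 1 for the β-catSD mean over stages and 1 for stage in WT C57BL/6. With 1 library left out it was 1 to 2 in β-catSO at E12.5, 3 to 5 in β-catSO at E13.5, 1 to 3 for the β-catSD mean over stages, 0 to 1 for the difference of the β-catSO effect between stages, 0 to 2 for stage in WT C57BL/6, 1 to 2 for stage in WT CD1 and 0 to 2 for strain. The replicate block also brought Tgfbr2 in β-catSO at E13.5 past the test (adjusted p = 0.0458), and changed no other call of the 7.

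Signs turned with the covariates for Tgfb1 in β-catSD (0.40 at E12.5, 1.36 at E13.5 and 0.88 over both stages, the last 2 past the test), in β-catSO at E12.5 (0.028), in the β-catSO minus β-catSD difference (-0.76) and for stage in WT CD1 (0.28). They also turned there for Tgfbi (-0.11) and Nrros (0.43) in β-catSD at E13.5, Tgfb2 in β-catSO at E13.5 (0.062) and for strain (0.068), Tgfbr1 for strain (0.058) and the β-catSO difference between stages (-0.081), and Tgfbr2 in β-catSO at E12.5 (-0.044), at E13.5 (-0.069), over both stages (-0.057) and in the differences between stages (0.28 for β-catSD and -0.025 for β-catSO). Small differences turned without TMM (Tgfbr1 in β-catSD at E12.5, -0.013, and Tgfbr2 in β-catSO at E12.5, -0.014), with median-of-ratios scaling (the same Tgfbr2 value, -0.0070) and with voom weights (Tgfb2 in β-catSO at E13.5, 0.0042, and the Tgfb1 β-catSO mean over stages, -0.0079). Without the liver-rich libraries they turned for Tgfb3 in β-catSD at E12.5 (0.0091), the Tgfb1 β-catSO mean over stages (-0.072) and its β-catSD difference between stages (-0.22), and Tgfbr2 (-0.021) and Tgfbr3 (-0.048) for stage in WT CD1.

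With 1 library left out, uncalled values that crossed 0 ranged, in β-catSD at E12.5, from -0.16 to 0.064 for Tgfb3 and from -0.052 to 0.057 for Tgfbr1, and at E13.5 from -0.0012 to 0.18 for Tgfbr1 and from -0.0052 to 0.063 for Tgfbi. In β-catSO they ranged from -0.078 to 0.057 for Tgfbr2 at E12.5, from -0.11 to 0.13 for Tgfb2 at E13.5 and from -0.072 to 0.25 for Tgfb1 over both stages. The β-catSD differences between stages ranged from -0.22 to 0.52 for Tgfb1, -0.31 to 0.014 for Tgfb2, -0.0085 to 0.17 for Tgfbr1 and -0.34 to 0.12 for Tgfbr2, and that of β-catSO from -0.068 to 0.12 for Tgfbr1. For stage they ranged in WT C57BL/6 from -0.20 to 0.54 for Tgfb1 and -0.059 to 0.0085 for Tgfbi, and in WT CD1 from -0.056 to 0.10 for Tgfbr2, -0.048 to 0.11 for Tgfbr3 and -0.17 to 0.068 for Tgfbi. For strain, Tgfb2 ranged from -0.074 to 0.043.

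Counts over all genes moved by more than 1.5 times as follows. With voom weights, 193 genes were called in β-catSD at E13.5 (469 as reported) and 643 in its mean over stages (990). With the covariates, 197 were called in β-catSD at E13.5, 523 in β-catSO at E12.5 (1127), 1251 in β-catSO at E13.5 (2120), 420 and 1316 in the means over stages (β-catSO 2560), 1449 in the β-catSO minus β-catSD difference (2473), 190 and 295 for stage in WT C57BL/6 (546) and WT CD1 (748), and 36 for strain (616). Without the liver-rich libraries, 366 were called for stage in WT CD1 and 1061 for strain, and with 12 libraries of the line 262 for stage in WT C57BL/6. With 1 library left out, 92 to 395 were called in β-catSD at E12.5 (237), 244 to 370 at E13.5, 720 to 883 in β-catSO at E12.5 and 1539 to 2286 at E13.5, 83 to 605 for stage in WT C57BL/6, 290 to 789 in WT CD1 and 233 to 1002 for strain. Differences of the effect between stages had 0 to 23 calls in β-catSD (0 as reported, 1 with the replicate block, 2 with the covariates, 22 without the liver-rich libraries) and 61 to 533 in β-catSO (183, 105 with the covariates, 113 without the liver-rich libraries).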
